A study of Homo sapiens with 9 samples.

Results

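The genes described here are 9 genes of cellular iron handling, namely TFRC, STEAP3 and SLC11A2 for uptake, FTH1, FTL and NCOA4 for storage, SLC40A1 for export, and IREB2 and ACO1 for sensing. The rule was a list of gene symbols, drawn up with earlier results of these data known, and all 9 had a row among the 27673 genes of the table. Transcripts were counted by RNA sequencing in A498 cells, an established human cell line of clear cell renal cell carcinoma (ccRCC). All 9 libraries came from cells infected with lentivirus that carried a pLKO.1 short hairpin RNA construct and were then held under puromycin, so the control cells shared the infection and the drug. The 3 groups were shControl, labelled WT, shBMAL1, labelled BMAL1 knockdown, and shARNT, labelled ARNT knockdown, with 3 biological replicates each. The study asked what BMAL1 and ARNT, which are bHLH-PAS transcription factors, contribute to gene expression driven by HIF2α in these cells. Each depletion had a single hairpin label, so effects of a hairpin beyond its target cannot be told apart from the depletion, and whether replicates were separate infections was not stated.

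Cells take up iron mainly as transferrin bound to the transferrin receptor. In the endosome the iron is released, reduced and carried to the cytosol, where it is used, stored inside ferritin or exported through ferroportin. A pair of iron regulatory proteins sense cytosolic iron and bind hairpins called iron-responsive elements (IREs): bound near the start of a message they block its translation, and bound after the coding region of TFRC they protect the message from decay. HIF factors and iron are linked in kidney cells, since the hydroxylases that mark HIF for destruction need iron and the EPAS1 message for HIF2α carries an IRE.

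The IREs are shown first because they are the features through which some of these messages are known to respond to iron. An IRE pattern was searched in 1 transcript per gene of GENCODE release 44 on GRCh37, written as a C, 5 bases, the loop CAGTGN and 5 bases that pair with the first 5. It occurred in 253 of 18868 coding transcripts (1.34%) and in 4 of the 9 iron genes. FTH1, FTL and SLC40A1 each held a single match in the 5′ UTR, and TFRC held 4 in the 3′ UTR. Each sequence is read 5′ to 3′ on the strand of the gene, and the capitals mark the unpaired C and the loop.
FTH1 (chr11:61735047-61735073, minus strand): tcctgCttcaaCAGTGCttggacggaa
FTL (chr19:49468593-49468619, plus strand): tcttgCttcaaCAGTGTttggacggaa
SLC40A1 (chr2:190445388-190445414, minus strand): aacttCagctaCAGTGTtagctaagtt
TFRC (chr3:195777851-195777877, minus strand): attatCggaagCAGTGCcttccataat
TFRC (chr3:195777447-195777473, minus strand): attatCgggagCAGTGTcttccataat
TFRC (chr3:195777382-195777408, minus strand): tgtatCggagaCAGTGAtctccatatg
TFRC (chr3:195777335-195777361, minus strand): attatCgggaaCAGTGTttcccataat
The pattern was not found in the transcripts searched for STEAP3, SLC11A2, NCOA4, IREB2 and ACO1, which says only that these letters were not in those transcripts. It was also not found for EPAS1, whose message carries an IRE, so the pattern misses known IREs. Other transcripts of each gene were not searched, so SLC11A2 and the others may still hold an IRE.

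Library totals lay between 35269851 and 36099075 counts. Levels are in CPM relative to library sizes that had been adjusted by the TMM method (trimmed means of M values), whose factors ranged from 0.932 to 0.944 for shControl, from 0.961 to 0.971 for shBMAL1 and from 1.10 to 1.11 for shARNT. The targeted transcripts went with their labels: ARNT stood at 48.1, 50.6 and 52.6 CPM in shControl and at 9.31, 9.12 and 9.95 CPM in shARNT, and BMAL1, listed as ARNTL, at 16.7, 15.9 and 16.2 CPM in shControl and at 5.41, 5.54 and 4.11 CPM in shBMAL1. Each depletion also moved the message of the other factor. ARNT was lower in the shBMAL1 libraries, at 33.0, 33.3 and 30.5 CPM (log2 change -0.65, adjusted p = 1.54e-08). ARNTL was higher in the shARNT libraries, at 23.9, 25.1 and 22.5 CPM (0.55, adjusted p = 8.27e-06). Neither contrast is thus of a single message alone. All 8 markers of renal epithelium and ccRCC on the list passed the low-count filter, whereas the leukocyte marker PTPRC and the endothelial markers PECAM1 and CDH5 summed to between 0 and 23 counts per group. CD68, a lysosomal glycoprotein that also marks macrophages, was abundant and fell in shARNT from 1864 ± 68.2 to 142 ± 6.48 CPM (SD, n = 3), and its part in the iron gene results was not tested.

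Of the 9 iron genes, 8 were abundant enough to be tested, and SLC40A1 was not. A gene counted as called where the quasi-likelihood test of edgeR, fitted over 15551 genes, gave a p under 0.1 after Benjamini-Hochberg adjustment, and every adjusted p here comes from that fit unless another is named. In shARNT against shControl, 8 of 8 were called, where 81.8% of all tested genes were called. They comprised 1 higher (IREB2) and 7 lower, against 40.5% and 41.3% of all tested genes, and the split was 2 and 6 under library size alone, where TFRC changed sign. In shBMAL1 against shControl, 6 of 8 were called (63.3% of all genes), 5 higher (31.9%) and NCOA4 lower (31.5%). The number higher was 6 under library size alone and 4 with DESeq2, where STEAP3 was not called. The median log2 fold change of the 8 genes was -0.45 in shARNT and 0.11 in shBMAL1, beside -0.01 and 0.00 over all tested genes. Their median absolute log2 change was 0.50 in shARNT and 0.15 in shBMAL1, beside 0.66 and 0.32 over all tested genes, so the median iron gene moved by less than the median of all genes. With a fold change of at least 1.5 also required, 3 were called in shARNT (STEAP3, FTL and IREB2, against 53.4% of all genes) and 1 in shBMAL1 (TFRC, which was higher, against 23.5% of all genes in either direction and 11.2% for higher genes).

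**Figure D1:**
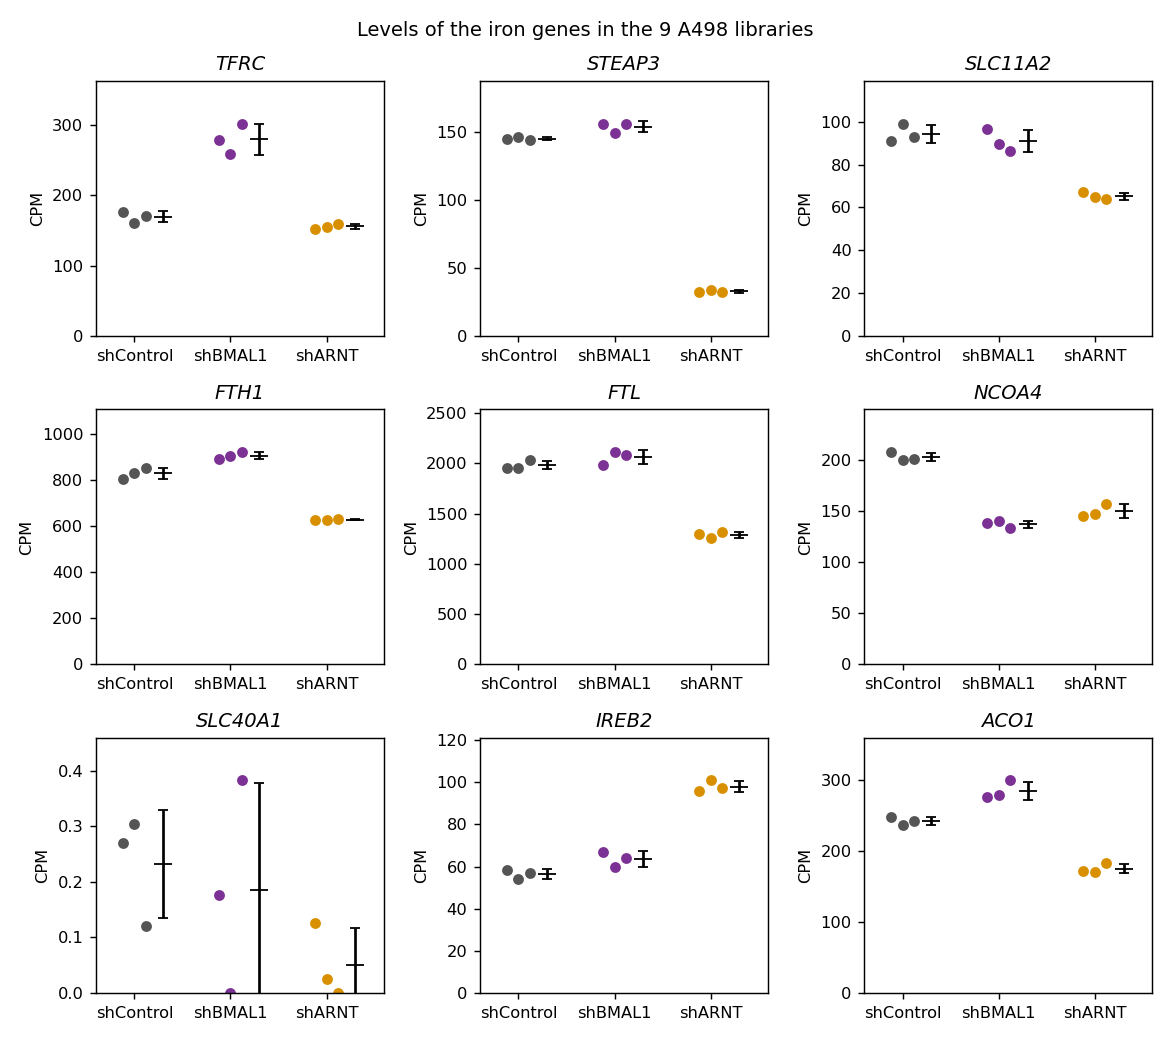
CPM of each iron gene in the 9 libraries, with points for libraries and bars for the mean and SD of 3 replicates per group; every axis starts at 0, and bars that would reach below 0 for SLC40A1 are cut there. TFRC was highest in shBMAL1, STEAP3 fell from 145 to 32.7 CPM in shARNT, and IREB2 alone was highest in shARNT.

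The uptake genes TFRC and STEAP3 each changed mainly in a single depletion. TFRC, the transferrin receptor (GRCh37 chr3:195739382-195809024), stood at 177, 161 and 171 CPM in shControl, 279, 258 and 302 CPM in shBMAL1 and 152, 156 and 160 CPM in shARNT. All shBMAL1 libraries lay above every other library, and the shARNT libraries lay just below the lowest shControl library. TFRC rose in shBMAL1 to 165% of the control level, which is 0.72 on the log2 scale (SE 0.0507, adjusted p = 2.37e-10). In shARNT its log2 fold change was -0.12 (SE 0.0509, adjusted p = 0.0348), and this became 0.11 (adjusted p = 0.0421) when libraries were scaled by library size alone, which moved the median of all genes in this contrast up by 0.24. The shARNT difference was also not called without shControl replicate 1 (-0.09, adjusted p = 0.136) or without shARNT replicate 1 (-0.10, adjusted p = 0.111), so the direction of TFRC in shARNT rested on the scaling, and its call also on single libraries. The rise in shBMAL1 held under each alternative, from 0.64 to 0.77.

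STEAP3, the endosomal reductase that turns ferric into ferrous iron after transferrin uptake (chr2:119981407-120023228), had the largest change among the 8 tested. It stood at 145, 147 and 145 CPM in shControl, 156, 149 and 156 CPM in shBMAL1 and 32.4, 33.7 and 32.1 CPM in shARNT. The shARNT libraries were far below the 6 others, which lay close together. STEAP3 fell in shARNT to 22.5% of the control level, or by -2.15 on the log2 scale (SE 0.0441, adjusted p = 1.31e-19). In shBMAL1 its log2 fold change was 0.08 (SE 0.0406, adjusted p = 0.0877), a call that was lost with DESeq2 (0.08, adjusted p = 0.136), with other size factors, with no low-count filter, in the fit of 6 libraries and without any of 5 single libraries.

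SLC11A2, the divalent metal transporter DMT1 that carries ferrous iron out of the endosome (chr12:51373184-51422349), fell in shARNT alone. It stood at 90.9, 99.2 and 92.8 CPM in shControl, 96.5, 89.8 and 86.4 CPM in shBMAL1 and 67.0, 64.9 and 63.9 CPM in shARNT. The ranges of shControl and shBMAL1 overlapped, and the shARNT range lay below both. SLC11A2 changed by -0.53 on the log2 scale in shARNT (SE 0.0508, adjusted p = 7.39e-09), and its shBMAL1 value was -0.05 (95% interval -0.15 to 0.05, adjusted p = 0.393). With the trend of counts with GC content removed, the shBMAL1 value was -0.12 and was called (adjusted p = 0.0404).

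The messages of the ferritin subunits fell together in shARNT. FTH1, the heavy chain with ferroxidase activity (chr11:61727190-61735106), stood at 803, 828 and 851 CPM in shControl, 890, 902 and 920 CPM in shBMAL1 and 627, 627 and 629 CPM in shARNT. The 3 groups did not overlap, and the shARNT libraries were nearly equal. FTH1 fell in shARNT to 75.8% of the control level (log2 fold change -0.40, SE 0.0333, adjusted p = 8.73e-10) and rose in shBMAL1 to 109% (0.13, SE 0.0333, adjusted p = 0.00268).

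FTL, the light chain that supports formation of the iron core (chr19:49468566-49470136), was the most abundant of the 9 genes. It stood at 1958, 1957 and 2033 CPM in shControl, 1984, 2114 and 2088 CPM in shBMAL1 and 1294, 1261 and 1321 CPM in shARNT. The shARNT libraries lay below all others, and shBMAL1 replicate 1 lay within the shControl range. FTL fell in shARNT to 65.2% of the control level (log2 fold change -0.62, SE 0.0343, adjusted p = 1.15e-12). In shBMAL1 its log2 fold change was 0.06 (95% interval -0.01 to 0.12, adjusted p = 0.169), and it was called there under library size alone (0.10), with the GC trend removed (0.08) and without shBMAL1 replicate 1 (0.08, adjusted p = 0.0495). Ferritin has many processed gene copies, 25 named for FTH1 and 16 for FTL in the annotation. The table held a row for 1 of them, with no reads, and the handling of reads with several alignments was not stated, so the 2 ferritin levels are uncertain to that extent. BEST1 overlaps FTH1 on the opposite strand and held 346 counts in the 9 libraries together.

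NCOA4, the receptor that delivers ferritin to the lysosome for iron release (chr10:51565199-51590734), was lower in both depletions. It stood at 207, 200 and 201 CPM in shControl, 138, 140 and 133 CPM in shBMAL1 and 145, 147 and 157 CPM in shARNT. All 6 depletion libraries lay below every shControl library, and the shBMAL1 range lay below the shARNT range. NCOA4 fell in shBMAL1 by 0.57 on the log2 scale (SE 0.0417, adjusted p = 4.72e-10) and in shARNT by 0.44 (SE 0.0414, adjusted p = 6.54e-09). NCOA4 was thus the only gene of the 8 tested that was called lower in shBMAL1. Of the ferritin messages, that of FTH1, the chain that binds NCOA4, was called higher there, and that of FTL was not called. Whether these changes are linked was not tested.

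SLC40A1 encodes ferroportin, the only known exporter of iron from vertebrate cells (chr2:190425316-190448484), and was near the limit of detection. It had 9, 10 and 4 counts in shControl, 6, 0 and 13 in shBMAL1 and 5, 1 and 0 in shARNT. The groups overlapped, and the libraries at 0 allow a level of up to 0.0846 CPM in shBMAL1 replicate 2 and 0.0831 CPM in shARNT replicate 3 of the unscaled total (a limit of 3 counts, for counting error only). The highest library, shBMAL1 replicate 3, had 0.367 CPM of the unscaled total (95% Wilson interval 0.215 to 0.628). Without the low-count filter the log2 fold change in shARNT was -2.12 (adjusted p = 0.0334), with DESeq2 it was -2.19 (adjusted p = 0.0841), and in shBMAL1 both tools gave -0.32 (adjusted p = 0.796 and 0.836). The shARNT difference thus passed the threshold of 0.1 with both tools, but it rested on 23 counts in all shControl libraries and 6 in all shARNT libraries.

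The messages of the iron regulatory proteins moved in opposite directions in shARNT. IREB2, which encodes the regulator IRP2 that is degraded when iron is plentiful (chr15:78729773-78793795), stood at 58.6, 54.1 and 57.0 CPM in shControl, 67.1, 59.7 and 64.2 CPM in shBMAL1 and 95.9, 101 and 97.1 CPM in shARNT. The shARNT range lay well above the 6 others, and the shBMAL1 range just above shControl. IREB2 rose in shARNT to 173% of the control level (log2 fold change 0.79, SE 0.0515, adjusted p = 1.5e-11) and in shBMAL1 to 113% (0.17, SE 0.0524, adjusted p = 0.00854). The latter was not called with the GC trend removed (0.08, adjusted p = 0.154).

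ACO1, whose product is cytosolic aconitase when it holds an iron-sulfur cluster and the IRE-binding IRP1 when it does not (chr9:32384601-32454767), stood at 248, 237 and 243 CPM in shControl, 275, 278 and 299 CPM in shBMAL1 and 172, 170 and 183 CPM in shARNT. The 3 groups did not overlap, with shBMAL1 highest and shARNT lowest. ACO1 fell in shARNT to 72.1% of the control level (log2 fold change -0.47, SE 0.0420, adjusted p = 2.34e-09) and rose in shBMAL1 to 117% (0.23, SE 0.0417, adjusted p = 9.49e-05).

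**Figure D2:**
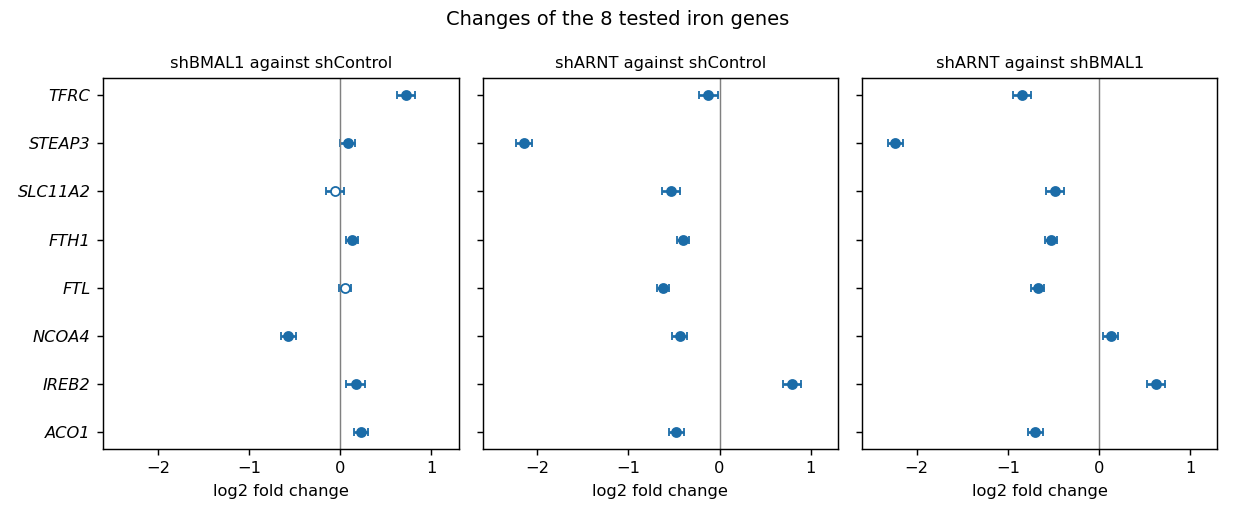
Log2 fold changes of the 8 tested genes in the 3 contrasts (TMM scaling), with points for the edgeR estimate, bars for its 95% interval, filled points for an adjusted p under 0.1 and open points otherwise. STEAP3 at -2.15 and IREB2 at 0.79 are the extremes in shARNT, TFRC at 0.72 and NCOA4 at -0.57 in shBMAL1; TFRC in shARNT changes sign under library size alone.

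Whether the depletions differed from each other was tested by setting shARNT directly against shBMAL1, a contrast of these groups' means from the same fit, in which the shControl libraries entered only through the scaling, the filter and the spread. All 8 tested genes were called, where 81.2% of all genes were called, 6 of them lower in shARNT (41.1% of all genes) and 2 higher (40.1%). With a fold change of at least 1.5 also required, 5 were called (52.6%). The log2 difference was -2.23 for STEAP3 (SE 0.0441), -0.84 for TFRC (SE 0.0506), -0.70 for ACO1 (SE 0.0420), -0.67 for FTL (SE 0.0343), -0.53 for FTH1 (SE 0.0334) and -0.48 for SLC11A2 (SE 0.0508). IREB2 was higher in shARNT than in shBMAL1 by 0.62 (SE 0.0510) and NCOA4 by 0.13 (SE 0.0417, adjusted p = 0.00763). The CPM ranges of shARNT and shBMAL1 did not overlap for any of the 8, which held for 79.6% of all tested genes. Against shControl the ranges did not overlap for 8 of 8 genes in shARNT (79.8% of all genes) and 6 of 8 in shBMAL1 (62.2%). These contrasts share their control libraries, so their values for a gene are not independent.

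**Figure D3:**
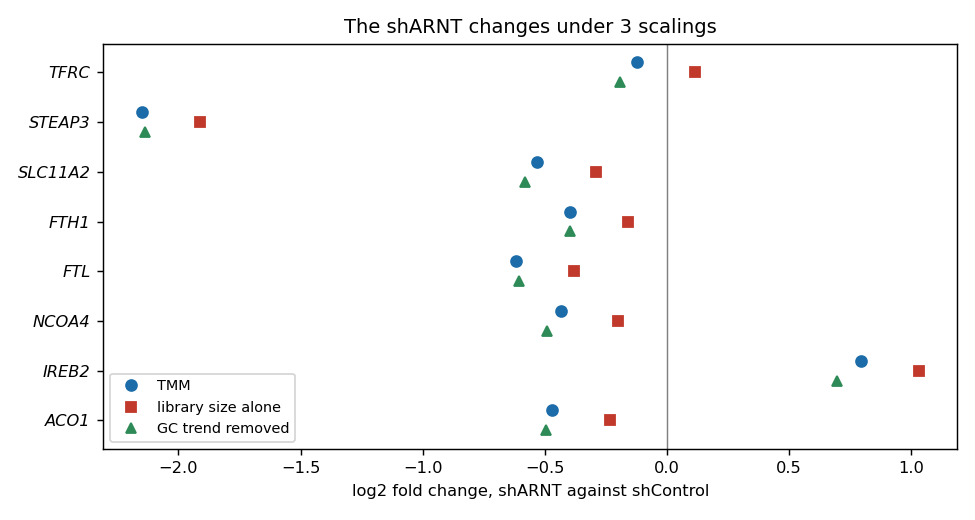
Log2 fold change of the 8 tested genes in shARNT against shControl under TMM scaling (circles), library size alone (squares) and with the GC trend removed (triangles). Library size alone moves each gene to the right by about the shift of the median gene (0.24), which takes TFRC from -0.12 to 0.11 and leaves the sign of the 7 others.

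Ratios of counts between these genes within a library do not depend on the scaling. They were chosen after their values were seen, and with 3 libraries against 3 an exact two-sided permutation test cannot give a p under 0.1. The ratio of TFRC to FTH1, of receptor to storage message, was 0.220, 0.195 and 0.201 in shControl, 0.313, 0.286 and 0.329 in shBMAL1 and 0.243, 0.248 and 0.255 in shARNT. The 3 groups did not overlap, so relative to FTH1 the TFRC message was higher in both depletions than in shControl (exact permutation p = 0.1 for each). Under TMM scaling the ratio rose in different ways. In shARNT FTH1 stood at 75.8% of the control level and TFRC at 91.9%, and in shBMAL1 FTH1 stood at 109% and TFRC at 165%. The ratio of TFRC to FTL was 0.0856 ± 0.00428 in shControl, 0.136 ± 0.0120 in shBMAL1 and 0.121 ± 0.00298 in shARNT (SD, n = 3), and here the depletions overlapped with each other (exact permutation p = 0.2). The ratio of IREB2 to ACO1 was 0.233 ± 0.00425 in shControl and 0.224 ± 0.0168 in shBMAL1, which overlapped (exact permutation p = 0.4), and 0.561 ± 0.0304 in shARNT, above both. FTL outnumbered FTH1 by 2.40 ± 0.0379 in shControl, 2.28 ± 0.0581 in shBMAL1 and 2.06 ± 0.0452 in shARNT, with no overlap between groups. STEAP3 counts were 0.857 ± 0.0483 of TFRC counts in shControl, 0.552 ± 0.0314 in shBMAL1 and 0.210 ± 0.00847 in shARNT.

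**Figure D4:**
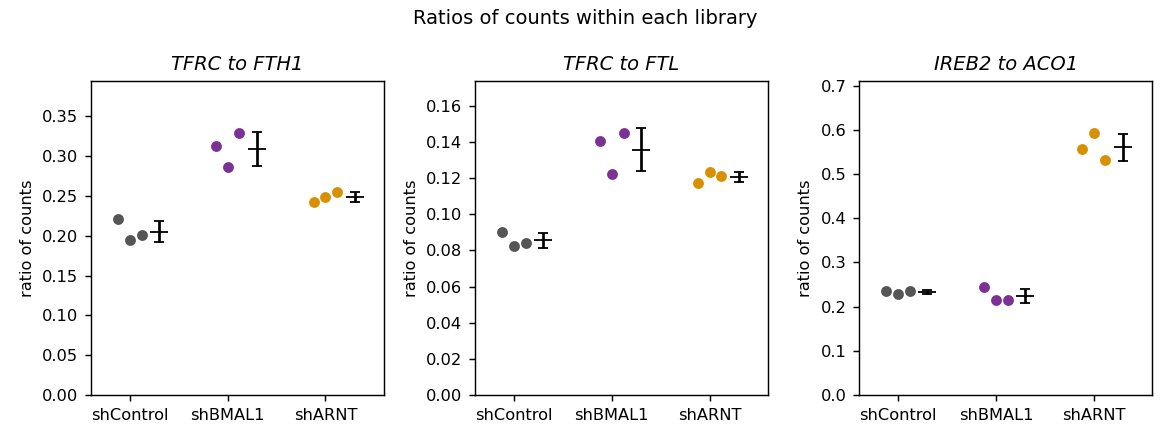
Ratio of counts within each library for TFRC to FTH1, TFRC to FTL and IREB2 to ACO1, with points for libraries and bars for the mean and SD of 3 replicates; axes start at 0. Both TFRC ratios are higher in the depletions than in shControl, in shARNT with lower ferritin messages rather than more TFRC under TMM scaling. The IREB2 to ACO1 ratio is 0.561 in shARNT against 0.233 in shControl.

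Levels of different genes were compared as CPM per kilobase of the same transcripts that were searched for IREs. In shControl, FTL (2277 ± 49.8 CPM per kilobase) and FTH1 (688 ± 19.9) were far above NCOA4 (58.6 ± 1.21). STEAP3 (34.1 ± 0.296), TFRC (33.9 ± 1.61) and ACO1 (32.6 ± 0.755) followed, where the range of TFRC overlapped with both neighbors and those of STEAP3 and ACO1 did not meet, and SLC11A2 (22.8 ± 1.06), IREB2 (8.94 ± 0.362) and SLC40A1 (0.0696 ± 0.0292) came last. In shBMAL1 TFRC moved to the third place (55.8 ± 4.40), above NCOA4 and ACO1, whose ranges overlapped. In shARNT STEAP3 moved to the eighth place (7.69 ± 0.205), and SLC11A2 (15.8 ± 0.389) and IREB2 (15.5 ± 0.406) overlapped. The share of all counts held by FTH1 and FTL together was lowest in the shARNT libraries (0.208% to 0.214%), higher in shControl (0.260% to 0.269%) and highest in shBMAL1 (0.279% to 0.293%). In bulk RNA, fewer cells with a message and less of it per cell cannot be told apart.

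Further genes of iron biology came from 6 lists of 86 genes with a row, of which 79 were tested. In shARNT 35 of these were called higher and 34 lower, a split that became 45 and 23 under library size alone, and in shBMAL1 36 were higher and 22 lower. Over all tested genes the shares were 40.5% higher and 41.3% lower in shARNT, and 31.9% and 31.5% in shBMAL1, against which each list count below is to be read. The list of uptake genes had 10 of 13 tested genes lower and 2 higher in shARNT (41.3% and 40.5% of all tested genes), with 6 and 3 under library size alone. Its median log2 fold change was -0.39. Among them SLC39A14, the importer ZIP14, fell from 121 ± 3.17 to 19.6 ± 2.32 CPM in shARNT (log2 fold change -2.63, adjusted p = 1.03e-17) and by less in shBMAL1 (-0.23, adjusted p = 0.00464). STEAP1, a relative of STEAP3, rose from 6.14 ± 0.886 to 33.0 ± 1.15 CPM in shBMAL1 (2.43, adjusted p = 3.79e-14). In shARNT its value was -0.32, a call that was lost under library size alone (-0.09). HFE, which binds the transferrin receptor and is mutated in hereditary hemochromatosis, fell in shARNT (-1.35, adjusted p = 5.4e-13) and rose in shBMAL1 (0.48, adjusted p = 3.07e-06). TFR2, the second transferrin receptor, fell in shBMAL1 (-1.22, adjusted p = 8.01e-07), and its shARNT value of -0.30 (adjusted p = 0.0537) was not called under library size alone, with DESeq2 or without shARNT replicate 1 or 2. HFE2, the older symbol of hemojuvelin, was named after its values were seen: it had 17, 12 and 27 counts in shControl and 0 in each of the 6 depletion libraries, at least 18.7-fold lower in shBMAL1 and at least 19.0-fold lower in shARNT against a floor of 3 counts per group.

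The export list had 4 of 7 genes tested, with 3 lower and 1 higher in shARNT and 1 of each in shBMAL1. Apart from CP, the tested genes of this list were near the floor, with means of 0.846 CPM or less in shControl. CP, which encodes ceruloplasmin, the ferroxidase that works with ferroportin, stood at 3313, 3143 and 3104 CPM in shControl, 4552, 4446 and 4406 CPM in shBMAL1 and 334, 361 and 332 CPM in shARNT. All shBMAL1 libraries were above and all shARNT libraries far below the shControl libraries. CP fell in shARNT by 3.22 on the log2 scale (adjusted p = 5.49e-23), while in shBMAL1 it rose by 0.49 (adjusted p = 6.2e-10), the same pair of directions as HFE.

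Of 29 genes of mitochondrial iron and iron-sulfur cluster assembly, 19 were higher and 5 lower in shARNT (40.5% and 41.3% of all tested genes, median of the list 0.40) and 17 higher and 6 lower in shBMAL1 (31.9% and 31.5%, median 0.28). Under library size alone the shARNT split was 24 and 1. The scaffold gene ISCU rose from 43.9 ± 0.986 CPM to 91.3 ± 1.78 CPM in shBMAL1 (1.05, adjusted p = 8.18e-14) and 141 ± 1.33 CPM in shARNT (1.68, adjusted p = 4.56e-18). NDOR1, a reductase of cytosolic cluster assembly, rose by 1.75 in shARNT and 0.30 in shBMAL1, ABCB8 by 1.41 and 0.23, and ABCB6 by 1.34 and 0.26, the last pair being transporters of mitochondrial and other membranes.

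Sensing and chaperone genes comprised 9 tested, with 6 higher and 2 lower in shARNT and 5 higher and 2 lower in shBMAL1. BOLA2 (0.67 in shARNT, 0.36 in shBMAL1) and GLRX3 (0.67 and 0.21), partners in cytosolic cluster delivery, rose in both, although GLRX3 was not called in shBMAL1 without shControl replicate 2. PCBP1, which hands iron to ferritin, fell by 0.76 in shARNT and by 0.17 in shBMAL1. CISD1, the mitochondrial outer membrane protein mitoNEET, fell mainly in shBMAL1, from 24.8 ± 0.315 to 6.53 ± 0.610 CPM (-1.93, adjusted p = 3.85e-13), and by 0.51 in shARNT.

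Of 18 heme genes tested, 7 were higher and 9 lower in shARNT (40.5% and 41.3% of all tested genes), which became 9 and 6 under library size alone, and 6 were higher and 7 lower in shBMAL1. ALAS1, the first enzyme of heme synthesis, rose from 41.1 ± 0.776 to 87.7 ± 1.42 CPM in shARNT (1.09, adjusted p = 5.94e-14) and by 0.47 in shBMAL1. ALAD, the second enzyme, fell in shARNT by 1.78 and in shBMAL1 by 0.24. The messages of the biliverdin reductases parted: BLVRB fell by 1.43 in shARNT and by 0.25 in shBMAL1, and BLVRA rose by 0.57 and 0.87.

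Of 6 tested further messages described as holding an IRE, 5 were lower in shARNT and the sixth, CDC14A, was not called (it was called higher under library size alone), and 3 were higher and 1 lower in shBMAL1. EPAS1 fell in shARNT by 2.22 and in shBMAL1 by 0.57. PFN2, a profilin, and APP, the amyloid precursor, were lower in shARNT (-0.54 and -0.32) and higher in shBMAL1 (0.17 and 0.30), and the PFN2 value in shBMAL1 was not called with the GC trend removed.

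**Figure D5:**
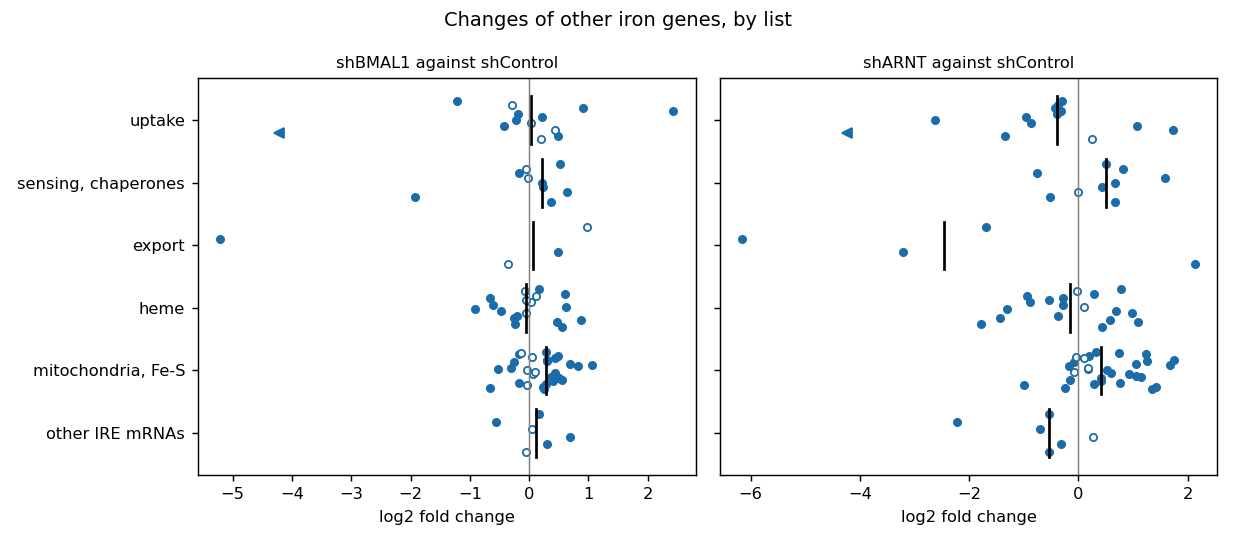
Log2 fold changes (TMM scaling) of the 79 tested genes of 6 further iron lists in shBMAL1 and shARNT against shControl; filled points have an adjusted p under 0.1, open points do not, black lines are medians, and the triangle is the bound for HFE2. In shARNT most uptake genes lie left of 0 and most mitochondrial and iron-sulfur genes right of 0, with medians of -0.39 and 0.40; library size alone moves all shARNT points right by about 0.24.

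How the genes varied together was described by Pearson's r of log2 CPM over the 9 libraries, which form 3 groups of 3, so that r mostly restates the group differences. FTL and STEAP3 had the highest r among the 28 pairs (0.99), with FTH1 and ACO1 (0.98) and FTH1 and FTL (0.98) next. IREB2 had a negative r with each of the 7 others, from -0.96 with SLC11A2 to -0.41 with TFRC. NCOA4 and TFRC had patterns that fewer genes shared, and r between them was -0.56. An r of 0.95 was reached by 146 of 11028 genes with NCOA4 and by 257 with TFRC, against 1642 with STEAP3 and 1537 with FTL. The genes most like each were LHPP, PINK1 and CHST15 for TFRC, ALDH4A1, BMPR2 and MKL1 for NCOA4, CTBS, CA12 and S100A6 for STEAP3, SMARCC1, PAWR and RBBP5 for IREB2, and UGGT1, VCAN and HN1L for ACO1. FTH1 was closest to YBX3, RSPH3 and LEPRE1, FTL to BLOC1S1-RDH5, STXBP6 and SEMA4F, and SLC11A2 to CAPN12, STT3A and GSTA4. All of these had an r of at least 0.99.

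Promoters were searched in RefSeq sequences of GRCh38.p14, which span from 250 bases before to 50 bases after a start site and covered 8 of the 9 genes, FTH1 not among them. The core of the site bound by HIF dimers with ARNT, ACGTG or GCGTG on either strand, occurred in 48.4% of 35116 promoters. It was found for TFRC, SLC11A2, FTL, IREB2 and ACO1, and not in the windows of STEAP3, NCOA4 and SLC40A1. SLC11A2 had 4 windows, IREB2 and NCOA4 had 2 each, and the other genes had 1. The share of 48.4% is per promoter, so a gene with several windows had more chances of a match. The E-box CACGTG, the site of BMAL1 with CLOCK, which itself contains ACGTG, occurred in 7.26% of promoters and in no window of these genes. Of the matches found, only that of TFRC is shown, picked because TFRC was the gene with the clearest rise in shBMAL1. This match lies 88 bases before the start site, and the capitals mark the core.
TFRC (GRCh38.p14 chr3:196082164-196082188, minus strand): tcgcgagcgtACGTGcctcaggaag
Whether a match to the core goes with a change in either depletion was not tested. Such matches describe letters and do not show binding.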

How the data were processed

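RNA from A498 cells was sequenced from stranded mRNA libraries in 3 groups of 3 biological replicates. Per the study's methods the authors aligned reads to GRCh37 with SeqMan NGen and exported counts with ArrayStar, whereas the submitters' processing notes list hg38, STAR and DESeq2. Annotation, strand use, multi-mapped reads and the counting of reads or pairs were not given in the sources used here. The deposited values were expected counts, linear total reads per gene without normalization. A value of 0.05 stood for no reads and was set to 0, fractions were rounded to whole numbers, and 43 names on several of the 27716 rows were summed to 27673 genes.

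edgeR 4.0.16 in R 4.3.3 fitted all 9 libraries with group as the only factor (TMM scaling, filterByExpr, quasi-likelihood F-test, Benjamini-Hochberg over 15551 genes). The common dispersion was 0.00311. DESeq2 1.42.0 was an alternative, beside other scalings, no filter, 6-library fits, a replicate block, halved counts, removal of a GC trend, added ferritin copies, a fold of 1.5 and leaving out each library. Intervals are 95%. On counts simulated from these libraries, 82% of genes lowered by 0.5 on the log2 scale and 84% of those raised by 0.5 were called. That simulation left 13904 genes unchanged, with 50 genes at each changed level and genes of few counts left out. In the measured shARNT contrast 81.8% of all tested genes were called, so these rates need not hold there. The iron genes and lists were chosen with earlier results of these data known. From each list at most 4 genes were named, those called in both depletions with the largest change and an average log2 CPM of at least 2, beside the 9 iron genes, ARNT and ARNTL. A further gene of the lists is not reported here. The 3 genes of highest r were named for each iron gene. Positions, lengths and sequences came from GENCODE release 44 on GRCh37 and RefSeq on GRCh38.p14. Labels gave no batch or date.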

Additional observations from a re-analysis of the deposited data

Results flagged for a closer look

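Each of the 8 tested iron genes responded differently to the depletions, as the direct contrast of shARNT with shBMAL1 showed (edgeR fit of all 9 libraries, quasi-likelihood test, Benjamini-Hochberg adjustment over all genes). The log2 difference was -2.23 for STEAP3 (adjusted p = 6.5e-20), -0.84 for TFRC (4.3e-12), -0.70 for ACO1 (4.11e-12), -0.67 for FTL (2.78e-13), -0.53 for FTH1 (1.03e-11) and -0.48 for SLC11A2 (3.59e-08). It was 0.62 for IREB2 (6.69e-10) and 0.13 for NCOA4 (0.00763). In this contrast 81.2% of all tested genes were called, so a difference between the depletions was common in these data. Each of these calls was kept in its direction under every alternative except the added requirement of a 1.5-fold change, which FTH1, SLC11A2 and NCOA4 did not meet.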

How the results depend on the processing

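Of the results for single genes, 1 reversed: TFRC in shARNT against shControl was 0.11 under library size alone. Counts of called genes moved by more than 1.5 times only when a fold change of at least 1.5 was also required, to 3 iron genes in shARNT, 5 in shARNT against shBMAL1 and 1 in shBMAL1, and to 41 further iron genes in shARNT and 18 in shBMAL1. The further genes called in shARNT against shBMAL1 went from 65 to 44. Under the other settings with all libraries, 8 to 9 iron genes were called in shARNT, 5 to 7 in shBMAL1 and 8 to 9 between the depletions. Leaving out each library in turn gave 7 to 9 iron genes called for shARNT, 8 to 9 for shARNT against shBMAL1 and 5 to 6 for shBMAL1, where 9 means that SLC40A1 passed the filter and was called. For the further genes these counts were 64 to 71, 62 to 66 and 54 to 60. No pairing by replicate number was seen: deviations of same-numbered libraries correlated from -0.17 to 0.17, and those of differently numbered libraries from -0.15 to 0.22. With 3 libraries per group a pairing could be missed. With the number as a replicate block, 8, 8 and 6 iron genes and 68, 65 and 58 further genes were called, and no call of a named gene changed. Library size alone moved the median of all genes up by 0.24 in shARNT, 0.19 in shARNT against shBMAL1 and 0.05 in shBMAL1. The cause of these changes was not tested. Limits: 3 libraries per group, a single hairpin per target, uncertain build and aligner, and reads of ferritin copies and of genes on the opposite strand that the counting may not have kept apart.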
